A study of Mus musculus with 2 samples.

Results

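The keratin-associated protein genes (Krtap in the mouse) were compared between the tooth and the skin of newborn wild-type mice. A gene counted as a member when the array gave it a name that starts with Krtap and a number, and control spots were left out. This rule found 51 of the 24103 named genes on the array, carried by 65 probes in 74 spots, and the number before the hyphen placed them in 23 subfamilies. Of these subfamilies, 12 held 2 or more members and 11 held 1. The series held 2 arrays, 1 of P0 WT tooth and 1 of P0 WT skin, each hybridised with Cy3-labelled cRNA made from total RNA. Per the labels both tissues came from wild-type animals at postnatal day 0, whereas the methods give an age 1 day later, and neither gives the number of animals behind an array. No treatment, transgene or mutant allele was part of these groups.

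Keratin-associated proteins form the matrix between the keratin filaments of the hair shaft. The kinds are distinguished by their amino acid content. The high-sulfur and the ultra-high-sulfur proteins are rich in cysteine and are cross-linked to the hair keratins by disulfide bonds. The high-glycine-tyrosine proteins are rich in glycine and tyrosine. Their genes are short, mostly without introns, and lie in clusters of near copies. They are switched on late in the hair follicle, in the cuticle and the cortex of the forming shaft, after the hair keratins, and a tooth has no hair shaft. Among the members, 17 belonged to high-sulfur subfamilies, 16 to ultra-high-sulfur subfamilies and 14 to high-glycine-tyrosine subfamilies, and the other 4 (subfamilies 28 and 31) were given no kind here.

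The probes were 60 bases long, and several of them read the repeats that these genes encode. Because the members of a subfamily are near copies, the first sequences shown are the pairs of probes that share most letters, with the bases that differ between the partners in capitals. All are written 5′ to 3′ as on the array, in the sense of the transcript.
Krtap6-1 from base 196 of its transcript: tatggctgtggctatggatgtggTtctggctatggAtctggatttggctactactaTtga
Krtap16-8 from base 233 of its transcript: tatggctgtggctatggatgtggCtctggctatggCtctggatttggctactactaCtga
Krtap8-2 from base 156 of its transcript: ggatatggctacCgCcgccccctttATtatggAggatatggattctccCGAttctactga
Krtap16-4 from base 218 of its transcript: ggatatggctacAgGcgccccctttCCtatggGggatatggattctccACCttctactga
The Krtap6-1 and Krtap16-8 probes differed at 3 bases and the Krtap8-2 and Krtap16-4 probes at 8, so that each partner may take up transcripts of the other. In mm9, the build that the array files name, these probes lie on chromosome 16, at chr16:89032140-89032199 on the plus strand, and at chr16:89047852-89047911, chr16:88896479-88896538 and chr16:88885057-88885116 on the minus strand. In all, 8 member probes, of 7 genes, shared at least 80% of their letters with a probe of another gene. Beside the pairs printed here, they were those of Krtap5-2 from base 1108, Krtap5-5 from bases 414 and 519, and Krtap20-2 from base 89. Their signal may likewise come in part from other genes.

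A second set shows the repeats of the high-glycine-tyrosine and the ultra-high-sulfur genes. Of the 18 member probes that hold GGCTAT or CTGCTG, 14 were well above background in tooth, beside 72.3% of all such probes of named genes. The Krtap16-7 probe shown was not among the 14. Capitals mark GGCTAT in the first pair and CTGCTG in the others.
Krtap20-2 from base 116: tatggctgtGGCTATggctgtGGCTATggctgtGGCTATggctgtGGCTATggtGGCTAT
Krtap16-7 from base 48: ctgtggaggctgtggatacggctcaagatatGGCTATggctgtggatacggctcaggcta
Krtap5-2 from base 1108: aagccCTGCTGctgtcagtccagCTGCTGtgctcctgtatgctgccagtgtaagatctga
Krtap5-5 from base 519: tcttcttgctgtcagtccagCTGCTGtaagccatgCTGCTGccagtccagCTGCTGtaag
Krtap4-8 from base 431: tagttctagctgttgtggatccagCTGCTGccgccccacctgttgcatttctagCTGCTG
Read as printed, GGCTAT stood in 8 of the 65 member probes (12.3%), all of them high-glycine-tyrosine, against 0.973% of all probes of named genes. Its reverse complement stood in 0 member probes and in 0.799% of all. CTGCTG stood in 11 member probes (16.9%), 8 of them ultra-high-sulfur, against 2.74% of all, and its reverse complement in 4 (6.15%) against 2.26%.

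Each value is the log2 of the processed intensity relative to the 75th percentile of its own array, so that 0 stands for an intensity of 428 in the tooth and 276 in the skin. A difference is skin minus tooth on that log2 scale. A probe was well above background when the extraction software called it so in over 50% of its spots. With 1 array per tissue there was no test of any difference. The SD given with a difference is the scanner software's own error estimate for a spot, carried to the log2 scale, and it leaves out the variation between animals. Where a member was well above background on the skin array alone, the difference is given as a bound against the weakest signal well above background on the tooth array. These bounds hold for the processed intensities: under normexp background correction, which adds 50 to every intensity, the differences of all 21 such members lay below their bounds, at 0.84 to 5.45. The brightness of different probes is not comparable as an amount of transcript, so a difference is taken only within the same probe. The words bright, weak and dim describe the signal of a probe, not how much transcript a gene has. In whole tissue, fewer cells of a type and less RNA per cell cannot be told apart.

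Most keratin-associated protein genes were brighter on the skin array, and in this they differed widely among themselves. On the skin array 43 of the 51 members were well above background, and in tooth 22, all of which were also among the 43. Of all named genes, 66.0% were well above background in skin and 68.7% in tooth. Over all 51 members with no filter, 39 exceeded their tooth value at least 2-fold in skin, against 15.1% of all named genes, and 0 went that far toward tooth, against 11.9%. Their median difference was 4.25, against 0.18 for all named genes. The 22 members measured on both arrays had differences from 0.27 to 5.46, with a median of 3.03 against -0.03 for all named genes so measured. Of these 22, 17 were at least 2-fold higher in skin, against 11.5% of all named genes, and 0 in tooth, against 12.4%. Among genes that passed background on 1 array or both, where a member seen in skin alone enters because it is bright there, 38 of 43 were past 2-fold in skin beside 14.2% of all named genes, and 0 in tooth beside 15.5%.

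By kind of protein and with no filter, the members past 2-fold toward skin were 13 of 17 high-sulfur, 15 of 16 ultra-high-sulfur and 9 of 14 high-glycine-tyrosine genes, and 2 of the 4 others. The 15, and so the 39 of all members, include Krtap4-6, which was well above background on neither array. In the tooth 3 of 17 high-sulfur members were well above background, compared with 11 of 16 ultra-high-sulfur and 7 of 14 high-glycine-tyrosine members. In skin these counts were 14, 15 and 11. The share of ultra-high-sulfur members seen in tooth was thus about that of all named genes, and no difference between the kinds was tested. The median difference with no filter was at least 2-fold toward skin in 20 of the 23 subfamilies, the exceptions being 14, 15 and 31.

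**Figure D1:**
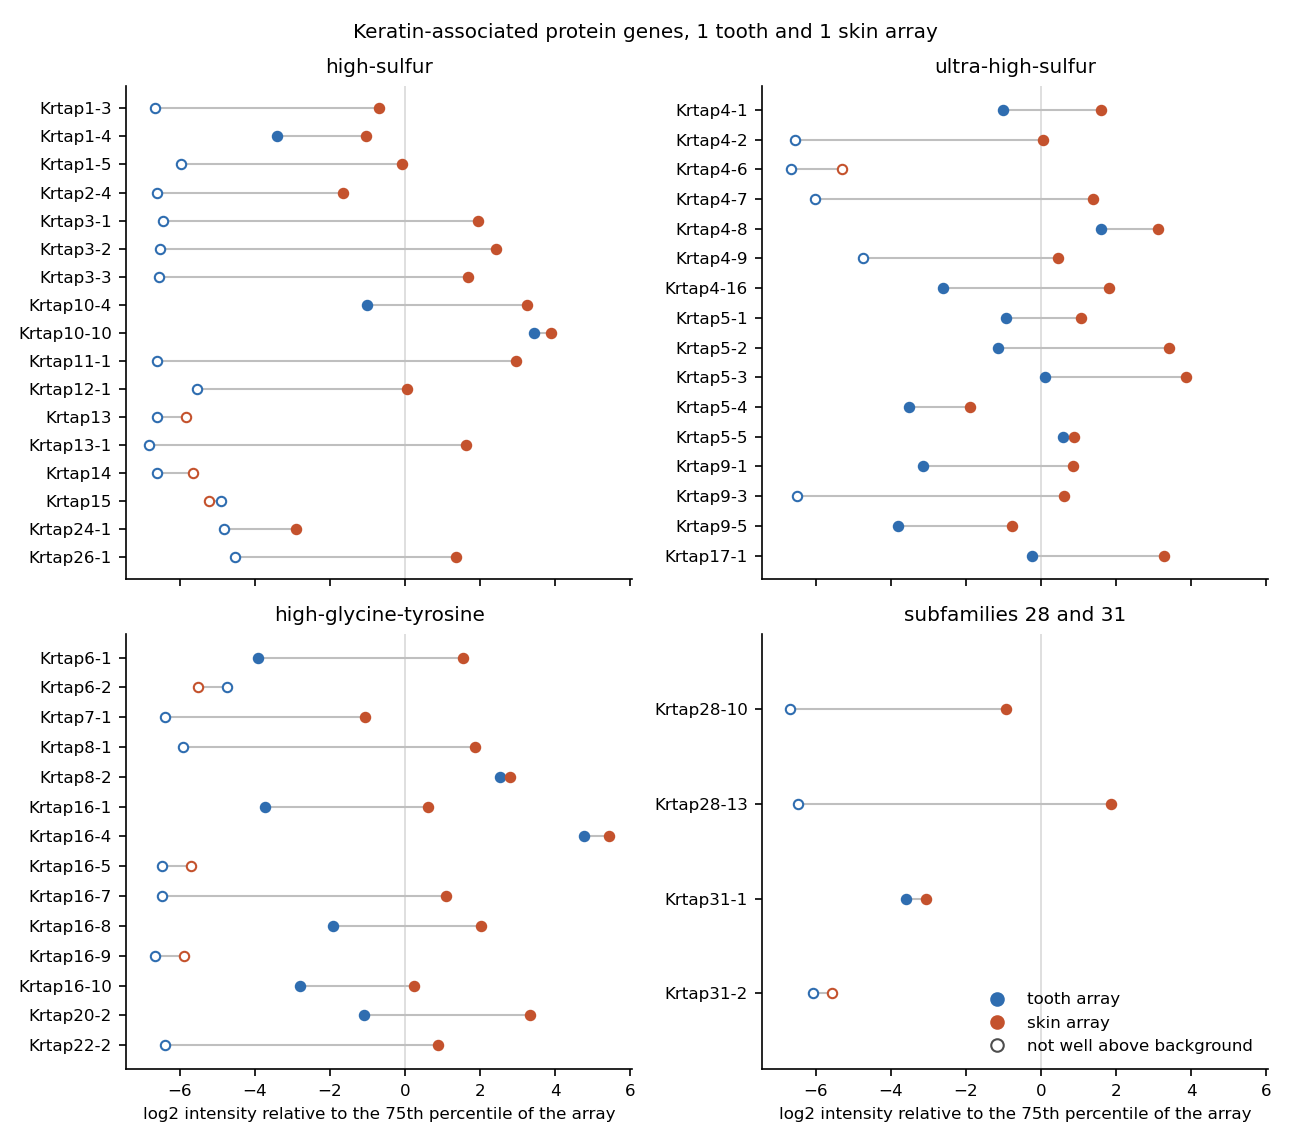
Log2 intensity relative to the 75th percentile of the array (x axis) of the 51 Krtap genes (rows), in 1 tooth array (blue) and 1 skin array (orange), by kind of protein. Open points are not well above background, and points are to be compared within a row: 22 genes have a filled blue point, 43 a filled orange point, and 8 have neither.

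Among the high-sulfur genes, all 3 members of subfamily 3 showed the same pattern. Krtap3-1 read -6.44 in tooth and 1.95 in skin, Krtap3-2 read -6.53 and 2.43, and Krtap3-3 read -6.56 and 1.68. None of the 3 tooth values was well above background and all 3 skin values were, so they were at least 88.4-fold, 123-fold and 73.5-fold higher in skin. Their probes lie in mm9 at chr11:99427397-99427456, chr11:99417555-99417614 and chr11:99411448-99411507, all on the minus strand. Krtap11-1, the only member of its subfamily, at the far end of the chromosome 16 cluster (chr16:89570421-89570480, minus strand), read -6.62 in tooth and 2.95 in skin, at least 176-fold higher. Its probe opens with this stretch, in which no letters are marked.
Krtap11-1 from base 948: aaagagggagcttgctgccccgtgtatttc

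The other high-sulfur genes ranged widely. Krtap13-1 read -6.81 in tooth and 1.61 in skin (at least 69.9-fold), while its neighbours Krtap13, Krtap14 and Krtap15 passed background on neither array. Krtap26-1 stood just under the tooth limit at -4.52 and read 1.36 in skin, at least 58.6-fold higher. Krtap24-1 was weak in skin too, with -4.81 in tooth and -2.90 in skin (at least 3.07-fold), and under normexp background correction its difference was 0.84, inside 2-fold. All 3 were thus seen in skin alone. In subfamily 1, which belongs to the chromosome 11 cluster, Krtap1-4 was measured in both tissues, at -3.41 in tooth and -1.05 in skin, a 5.13-fold difference (2.36 ± 0.26 SD). Its relatives Krtap1-3 (-6.67 and -0.71) and Krtap1-5 (-5.96 and -0.08) were dim in tooth, and were at least 14-fold and 21.6-fold higher in skin. All 3 skin values were well above background. Krtap2-4 read -6.60 and -1.65, at least 7.26-fold higher in skin. Krtap12-1, on chromosome 10, read -5.55 and 0.05, at least 23.7-fold higher.

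Both Krtap10 genes of the array lie on chromosome 10 too, and they went apart. Krtap10-4 read -1.01 in tooth and 3.24 in skin, 19.0-fold higher (4.25 ± 0.21 SD). Krtap10-10 (chr10:77299937-77299996, plus strand) read 3.42 in tooth against 3.89 in skin, which leaves a difference of 0.47 ± 0.20 SD. Thus 1 of the 2 was past 2-fold, and the other was similarly bright in both tissues.

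Of the ultra-high-sulfur genes, all 5 members of subfamily 5, whose genes form the cluster on chromosome 7, were well above background on both arrays. Krtap5-2 read -1.15 in tooth and 3.40 in skin (23.4-fold, 4.55 ± 0.21 SD), and Krtap5-3 read 0.10 and 3.86 (13.5-fold, 3.76 ± 0.20 SD). Krtap5-1 read -0.93 and 1.06 (3.97-fold, 1.99 ± 0.21 SD), and Krtap5-4 read -3.51 and -1.89 (3.08-fold, 1.62 ± 0.29 SD). All 4 were past 2-fold in skin with this scaling, though Krtap5-4 came inside 2-fold under other settings given further on. The fifth, Krtap5-5, read 0.59 in tooth and 0.88 in skin by its brightest probe, which makes a difference of 0.29 ± 0.20 SD, but its other probes gave another picture, described further on.

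Subfamily 4, the largest on the array together with subfamily 16 at 7 members each, was split between measured and dim tooth values. Krtap4-8 read 1.60 in tooth and 3.11 in skin, 2.83-fold higher (1.5 ± 0.20 SD). Krtap4-1 read -1.02 and 1.59 (6.10-fold, 2.61 ± 0.21 SD), and Krtap4-16 read -2.62 and 1.80 (21.5-fold, 4.43 ± 0.23 SD). In contrast, Krtap4-2 (-6.54 and 0.05), Krtap4-7 (-6.01 and 1.38) and Krtap4-9 (-4.73 and 0.44) were not well above background in tooth, and were at least 23.6-fold, 59.4-fold and 31.1-fold higher in skin. Krtap4-6 was dim on both arrays.

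Subfamily 9 and the single Krtap17-1 completed this kind. Krtap9-1 read -3.15 in tooth and 0.86 in skin (16-fold, 4.0 ± 0.24 SD), and Krtap9-5 read -3.80 and -0.77 (8.15-fold, 3.03 ± 0.31 SD). Krtap9-3 was dim in tooth (-6.50) and read 0.61 in skin, at least 34.9-fold higher. Krtap17-1, which lies at the end of the chromosome 11 cluster, read -0.24 and 3.28, 11.4-fold higher (3.52 ± 0.20 SD). Every measured gene of both subfamilies was therefore past 2-fold in skin.

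**Figure D2:**
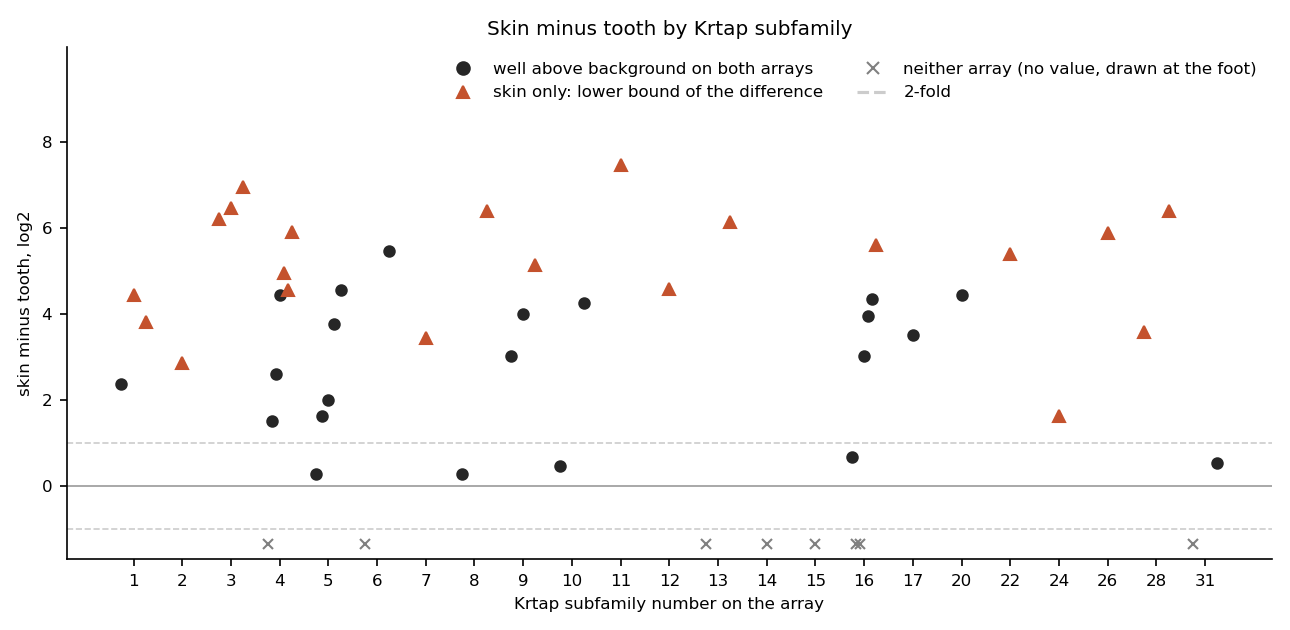
Skin minus tooth (y axis, log2) of each Krtap gene, by its subfamily number on the array (x axis). Circles are the 22 genes measured on both arrays, triangles are lower bounds for the 21 seen in skin alone, and crosses at the foot mark the 8 with no value; 5 circles lie inside the dashed 2-fold lines.

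The high-glycine-tyrosine genes held both extremes of the differences measured on both arrays. Krtap6-1 read -3.92 in tooth and 1.54 in skin, 44.1-fold higher (5.46 ± 0.31 SD), the largest such difference when each gene is read by its brightest probe. Krtap20-2 read -1.10 and 3.34 (21.6-fold, 4.43 ± 0.21 SD). Krtap16-1 read -3.74 and 0.60 (20.2-fold, 4.33 ± 0.30 SD). All 3 genes were higher in skin by over 16-fold. Krtap16-8 read -1.92 and 2.02 (15.4-fold, 3.94 ± 0.21 SD), though its probe is the near copy of the Krtap6-1 probe printed earlier. Krtap16-10 read -2.78 and 0.24 (8.16-fold, 3.03 ± 0.24 SD).

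Against these, Krtap16-4 and Krtap8-2 were bright in both tissues. Krtap16-4 read 4.77 in tooth against 5.43 in skin, which leaves a difference of 0.67 ± 0.20 SD. Krtap8-2 read 2.53 and 2.80, a difference of 0.27 ± 0.20 SD, the smallest on the same reading. Its second probe, from base 410 and with no close copy, read 1.97 and 2.54, a difference of 0.57. Both Krtap8-2 probes, with and without a near copy, thus put the gene within 2-fold.

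RefSeq (GRCm38.p6) names 49 of the 51 members, 8 of them differently from the array. By those names Krtap16-4 and Krtap8-2 are Krtap19-4 and Krtap19-5, and they stand in 1 subfamily of 5 with Krtap16-1 (Krtap19-2), Krtap16-5 (Krtap19-3) and Krtap16-9 (Krtap19-1). That subfamily then held 2 members bright in both tissues, 1 member 20.2-fold higher in skin and 2 members dim on both arrays. Krtap16-7, Krtap16-8 and Krtap16-10 become Krtap21-1, Krtap6-5 and Krtap16-3. With the new names Krtap6 therefore holds Krtap6-1, its near copy and Krtap6-2, which was dim on both arrays.

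The remaining high-glycine-tyrosine genes were seen in skin alone. Krtap8-1 read -5.91 in tooth and 1.87 in skin (at least 83.8-fold), Krtap16-7 read -6.46 and 1.08 (at least 48.3-fold), Krtap22-2 read -6.40 and 0.87 (at least 41.7-fold), and Krtap7-1 read -6.39 and -1.08 (at least 10.8-fold). All 4 tooth values were below the weakest signal called well above background there (-4.52). Of the subfamilies given no kind, Krtap28-13 (-6.48 and 1.87) and Krtap28-10 (-6.68 and -0.94), on chromosome 1, were at least 83.3-fold and 11.9-fold higher in skin. Krtap31-1 was weak on both arrays, at -3.60 and -3.06, a difference of 0.54 ± 0.33 SD, and its neighbour Krtap31-2 was not well above background on either.

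Thus 5 members were within 2-fold on both arrays, namely Krtap5-5, Krtap8-2, Krtap10-10, Krtap16-4 and Krtap31-1. Their differences of 0.27 to 0.67 depend on the scaling. When the arrays were scaled by 8 spike-in transcripts of known amount instead of the 75th percentile, all differences moved by -0.62, and Krtap5-5 (-0.34), Krtap8-2 (-0.36), Krtap10-10 (-0.15) and Krtap31-1 (-0.087) then fell on the tooth side while Krtap16-4 stayed at 0.05. For these 5 genes no direction is given here. Krtap4-8 and Krtap5-4, at 0.88 and 0.998, then came inside 2-fold as well, so that 36 in place of 38 members were past it. Under normexp the count was also 36, without Krtap5-4 (0.97) and Krtap24-1 (0.84). With the 75th percentile scaling, members well above background on at least 1 array had a median difference of 4.55. Without the 5 members within 2-fold it was 5.24, a rise that leaving out small differences brings by construction.

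The probes of a gene did not always tell the same story. Of the 51 members, 10 had 2 or more probes, and in 5 of these (Krtap4-16, Krtap5-1, Krtap5-2, Krtap5-5 and Krtap20-2) the measured differences, or a bound beside a measured difference, lay at least 2-fold apart. Krtap5-5 was the clearest case. Its probe from base 9, at the start of the transcript, read 0.59 in tooth and 0.88 in skin. The probe from base 414 read -2.74 and 1.60, a difference of 4.34, that from base 519 read -3.09 and 2.62, a difference of 5.71, and that from base 513 was dim in tooth and at least 82.6-fold higher in skin. Only the first of the 4 probes put Krtap5-5 within 2-fold, and that probe stood for the gene since it was brightest over both arrays. It shared at most 51.7% of its letters with a probe of another gene. The probes from bases 414 and 519 shared 80% with probes of Gm10153 and Gm9340, and may take up their transcripts. That from base 513 shared 70% with a probe of Gm11559.

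In 6 genes some probes were well above background in tooth and others were not, and in 5 of them the probe nearest the 3′ end was among the dim ones. Over all named genes with several probes, 25.8% were mixed in this way, and in 34.8% of those the 3′ probe was dim. Krtap5-2 from base 1367 was dim in tooth (-6.49) and read 1.62 in skin, at least 70.3-fold higher, compared with 23.4-fold for the repeat probe. Krtap4-16 from base 800 was at least 51.1-fold higher in skin, compared with 21.5-fold. In Krtap6-1 and Krtap16-8 the 3′ probe was dim on both arrays, so that the values of both genes rest on the near copies printed earlier. That of Krtap16-8 had 2 of 9 spots well above background in skin and 0 of 10 in tooth. These 3′ probes, of which the first 30 bases follow, hold neither GGCTAT nor CTGCTG.
Krtap6-1 from base 515: gtcatgactctgtcacatatgcttttggtt
Krtap16-8 from base 392: ctggagtttatgatgtgaccttgttgaaga
In Krtap20-2 the probes from bases 89, 116 and 156 gave differences of 5.47, 4.43 and 2.96, whereas that from base 474 was dim in both tissues. Krtap5-1 was well above background with both probes, which gave 4.32 and 1.99. For Krtap11-1 and Krtap28-13 every probe was dim in tooth and well above background in skin, and the second probes gave lower bounds, at least 37.0-fold and 25.4-fold.

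**Figure D3:**
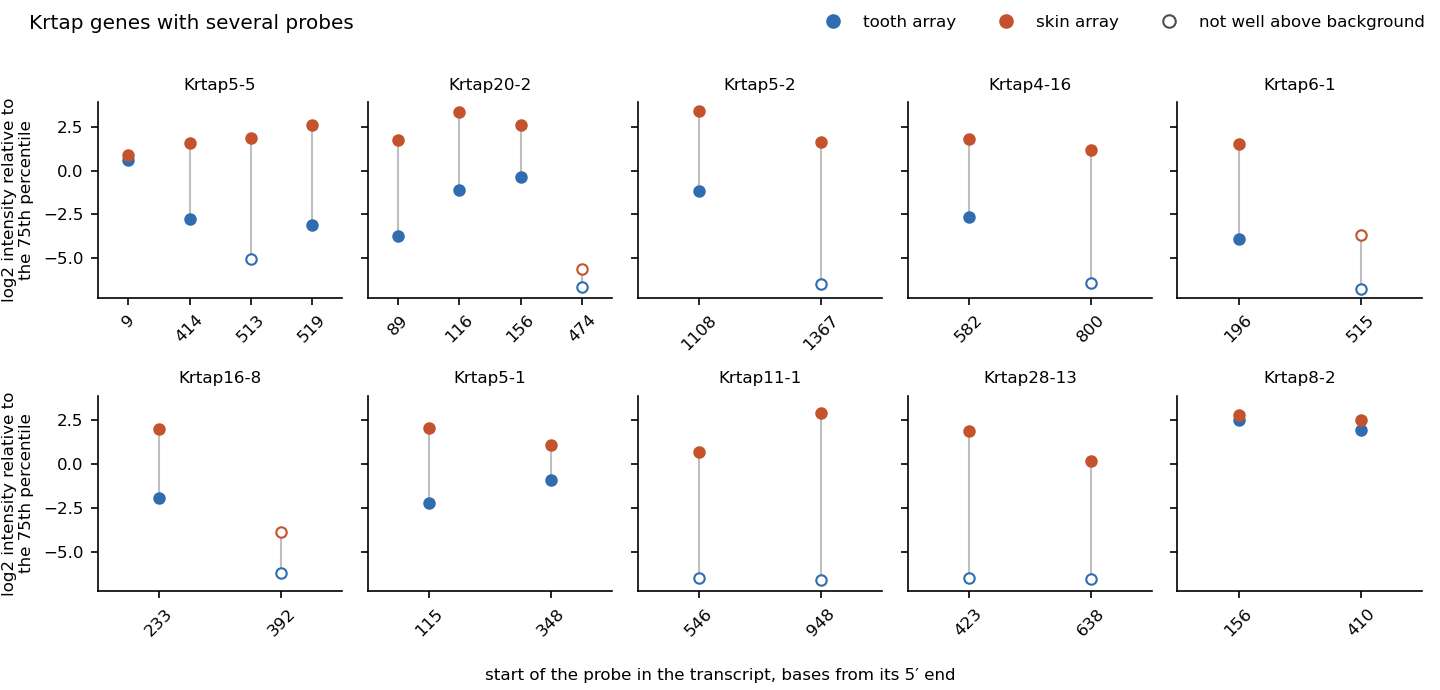
Log2 intensity relative to the 75th percentile of the array (y axis) of each probe of the 10 Krtap genes with several probes, by where the probe starts in the transcript (x axis, in bases, not to scale). Blue is the tooth array, orange the skin array, and open points are not well above background: in Krtap5-2, Krtap4-16, Krtap6-1, Krtap16-8 and Krtap20-2 the rightmost tooth point is open while a point to its left is filled.

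Member probes that were well above background in tooth were rich in G and C. The 28 such probes had a median of 53.3% G and C (range 35.0 to 60%), compared with 38.3% (18.3 to 55.0%) for the 37 others. In the tooth 2 of 22 member probes under 40% G and C were well above background, beside 63.6% of all probes of named genes of that composition. At 40 to 50% they were 6 of 16, beside 67.1%, and at 50 to 60% they were 19 of 26, beside 78.3%. On the skin array the same 3 classes gave 13 of 22, 14 of 16 and 26 of 26, beside 59.7%, 63.5% and 74.2% of all probes of named genes. Of the 18 member probes with GGCTAT or CTGCTG, 14 were well above background in tooth, and of the 47 with neither, 14. Over all probes of named genes these shares were 72.3% and 67.3%. The part of base composition and of shared repeats in the tooth signal was not tested.

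**Figure D4:**
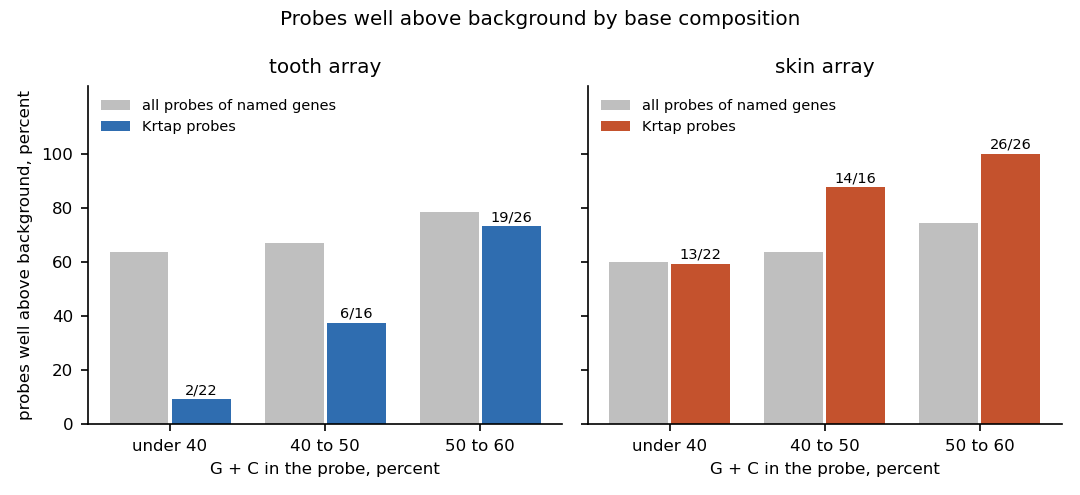
Share of probes well above background (y axis, percent) in tooth (left) and skin (right), by the G and C content of the probe (x axis, percent), for all probes of named genes (grey) and for Krtap probes (coloured, with counts). The Krtap share in tooth goes from 2 of 22 to 19 of 26, while the grey bars lie between 59.7% and 78.3%; the 1 Krtap probe at 60% or more is left out.

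The regions just upstream of the genes were also read for a TATA box. Of the 51 members, 44 had a promoter in the RefSeq table (GRCm38.p6). TATAAA, on the sense strand and 15 to 45 bases before the transcription start, stood in 26 of the 44 (59.1%), against 2.36% of all promoters in the table. Its reverse complement stood in 0 members and in 0.762% of all. TATAAG stood in 5 more members (11.4%), against 1.18% of all, and its reverse complement in 0 against 0.459%. By signal, TATAAA stood before 13 of 16 members seen in skin alone, 11 of 20 seen on both arrays and 2 of 8 seen on neither. This split leaves out the members with TATAAG. They were Krtap14, Krtap15 and Krtap16-5, seen on neither array, Krtap3-3, seen in skin alone, and Krtap5-3, seen on both. A link between these motifs and the signal was not tested. The 60 bases before the start are shown for a high-sulfur gene bright in skin alone, an ultra-high-sulfur gene measured on both arrays, the neighbours Krtap31-1 and Krtap31-2 and the bright Krtap16-4, with TATAAA in capitals.
Krtap3-1, chr11:99566631-99566690, minus strand: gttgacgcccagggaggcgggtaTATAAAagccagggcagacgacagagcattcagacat
Krtap5-2, chr7:142176006-142176065, minus strand: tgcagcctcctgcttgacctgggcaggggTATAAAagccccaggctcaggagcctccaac
Krtap31-1, chr11:99907860-99907919, plus strand: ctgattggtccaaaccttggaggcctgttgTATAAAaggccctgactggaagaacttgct
Krtap31-2, chr11:99936231-99936290, plus strand: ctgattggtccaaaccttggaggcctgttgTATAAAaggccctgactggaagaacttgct
Krtap16-4, chr16:88885090-88885149, minus strand: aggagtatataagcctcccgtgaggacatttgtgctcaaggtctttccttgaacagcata
The Krtap31-1 and Krtap31-2 windows were identical, although the first gene was weakly seen on both arrays and the second on neither. The Krtap16-4 window holds no TATAAA, and its TATAAG lies more than 45 bases before the start.

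The partners of these proteins in the hair shaft were brighter in skin too. Of 15 hair shaft keratins on the array, 13 had skin values at least 2-fold above tooth, beside 15.1% of all named genes with no filter. Of the others, 1 was seen in tooth alone and 1 was dim on both arrays. Krt35 read -4.0 in tooth and 6.46 in skin (10.47 ± 0.31 SD), and Krt83, Krt86 and Krt31 gave 5.39, 5.08 and 4.89. Smaller differences came from Krt32 (2.35), Krt81 (1.80), Krt36 (1.75) and Krt82 (1.61), and the median of the 9 keratins measured on both arrays was 2.35. Krt33a, Krt33b, Krt34 and Krt40 were dim in tooth, and were at least 308-fold, 164-fold, 92.7-fold and 10.1-fold higher in skin. Krt84, a keratin of the tongue and nail as well as hair, was the exception, at -3.01 in tooth and dim in skin (at least 1.65-fold higher in tooth). The probes of Krt85 gave differences from 1.01 to 9.22, the same kind of split as in Krtap5-5.

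Of 18 genes listed as regulators and cross-linkers of the hair shaft, 12 had skin values at least 2-fold above tooth and 3 had the opposite. Among all named genes with no filter, these shares were 15.1% and 11.9%. Hoxc13, a homeobox factor of the hair matrix, read -2.46 in tooth and 2.75 in skin (5.20 ± 0.22 SD), and Foxn1, a forkhead factor of the same cells, read -3.34 and -0.49 (2.85 ± 0.26 SD). Gata3, Krt71, Tchh and the calcium-binding cuticle protein S100a3 differed by 7.75, 11.98, 6.44 and 7.06, and the desmosomal Dsg4 was at least 11.1-fold higher in skin. Msx2 (-2.40), the desmosomal Dsc2 (-2.29) and Selenbp1 (-1.01) were higher in tooth, where Msx2 marks dental cells as well. Krt71 and Tchh, both among the 12, also stand among the inner root sheath markers, so the list is not of the hair shaft alone. Tgm3 was within 2-fold by its brightest probe (0.098), whereas its other probe gave a difference of 5.62.

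**Figure D5:**
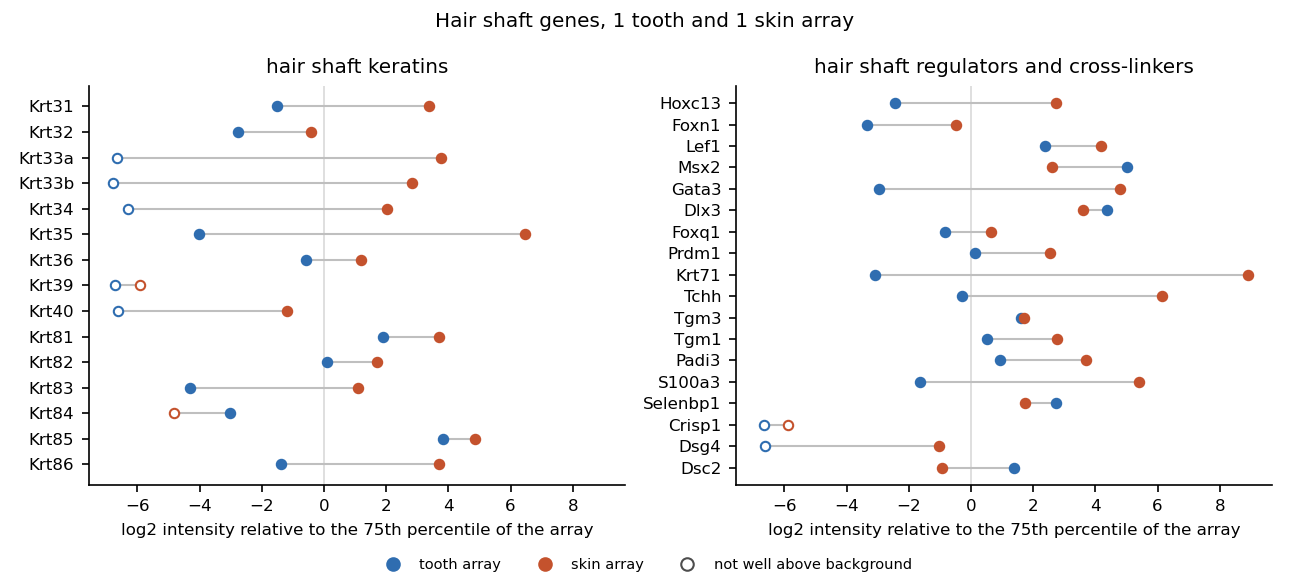
Log2 intensity relative to the 75th percentile of the array (x axis) of hair shaft keratins (left) and of hair shaft regulators and cross-linkers (right), tooth array in blue and skin array in orange, open where not well above background. Msx2, Dsc2 and Selenbp1 have the tooth point to the right by at least 2-fold and Dlx3 by less, and Krt84 has a filled point in tooth alone.

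The tissues matched their labels by their markers. All 5 enamel and dentin genes tested (Amelx, Ambn, Enam, Mmp20, Dspp) were well above background in tooth, at 2.97 to 10.27, and 0 of 5 in skin. Of the epidermal markers Krt1, Krt10, Lor and Flg, all 4 were well above background in skin, at 9.13 to 10.56, and all 4 were also above background in tooth, at -3.21 to 1.44. Of 5 markers of the inner root sheath, which surrounds the growing hair shaft, 5 were well above background in skin and 4 in tooth, where Krt27 read 0.99, Krt73 1.15, Tchh -0.29 and Krt71 -3.09 and Krt25 was dim. The summed level of this list was 2.37 in tooth and 9.66 in skin on the log2 scale, and that of the epidermal list 2.58 and 11.88. Of 3 markers of oral epithelium, Krt4 and Krt76 were seen in tooth alone, Krt4 at least 2.96-fold higher and Krt76 with no bound above 1. Krt13 was higher in skin by its brightest probe (3.55 in tooth, 5.90 in skin), while its other probe gave a difference of 0.44. The part of such cells in the tooth values of the 22 keratin-associated protein genes was not tested.

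By place in the genome, the members lay in 5 clusters. On chromosome 7 all 5 members were well above background in tooth, on chromosome 10 they were 2 of 3, on chromosome 11 they were 8 of 20, on chromosome 16 they were 7 of 21 and on chromosome 1 they were 0 of 2. The counts in skin were 5, 3, 18, 15 and 2. The median differences with no filter were 1.99, 4.25, 4.68, 3.94 and 7.05 in the same order. The value for chromosome 7, which holds subfamily 5 alone, rests on the choice of probe and of background: it was 3.76 with the mean of the probes or the probe nearest the 3′ end, 4.32 with the probe of lowest mean and 3.45 with normexp. The clusters are therefore not ordered here.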

How the data were processed

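Per the labels, column-purified total RNA was amplified to Cy3 cRNA and hybridised to Agilent one-colour mouse arrays, which the authors read with Agilent Feature Extraction 10.7.3.1. The deposited scanner files give processed intensities with the background subtracted, and yes-or-no calls per spot, in mm9 coordinates. A deposited value table holds each intensity as a ratio to 1 number per array, near its 75th percentile (the methods name a percentile shift without its level), and was used as an alternative. Both arrays were on 1 slide.

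Outlier spots were dropped, spots of a probe averaged, and log2 intensities scaled to the 75th percentile of the non-control probes. A gene was represented by its brightest probe over both arrays. Every Krtap gene could be named, and values were given for members seen in tooth, within 2-fold, at the extremes of a subfamily or with discordant probes. The members and the lists were chosen with earlier results of these data known. No test was possible with 1 array per tissue, and p-values are not given. The script was checked on simulated arrays. R 4.3.3, limma 3.58.1, Python 3.11.15, pandas 2.3.3, numpy 2.4.6 and matplotlib 3.10.9 were used. Protein sequences were not used here.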

Additional observations from a re-analysis of the deposited data

Results flagged for a closer look

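Probes that name no Krtap gene but lie inside the 5 clusters were no part of the comparisons, and were read beside the negative control spots. Of the 78 found, 65.4% passed background in skin and 44.9% in tooth, whereas 0 of 297 negative control spots did so in either. Over all probes of named genes these shares were 63.7% and 67.5%, so the share in skin was about that of any probe. Gm11570, which RefSeq names Krtap16-1 and which is not the Krtap16-1 of the array, read -5.28 in tooth and 2.42 in skin, at least 123-fold higher in skin. Gm10153, in the chromosome 7 cluster, read -3.42 and 2.30, a difference of 5.72. Gm2696, in the chromosome 10 cluster, was bright in both tissues, at 2.21 and 2.73.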

How the results depend on the processing

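Under every setting tried, 0 members were at least 2-fold higher in tooth. The median difference of members well above background on at least 1 array was 4.55. It was 4.30 with a median shift, 3.93 with spike-in scaling, 2.96 with normexp background correction, 4.38 with members positive and significant on at least 1 array, and 4.25 both with no filter and with dim values at their bound. It was 4.94 with the mean of the probes, 5.46 with the probe of lowest mean and with the probe nearest the 3′ end, and 5.24 without members that have a similar probe of another gene and without the 5 members within 2-fold. The last 2 probe and member choices (3′ end, without the 5) were added after seeing the data. With members well above background on both arrays it was 3.03, and by construction the counts then fell to 17 members and 9 subfamilies past 2-fold in skin and 22 members seen in skin. Under spike-in scaling Krtap10-10 (-0.15), Krtap8-2 (-0.36), Krtap5-5 (-0.34) and Krtap31-1 (-0.087, alone in its subfamily's median) reversed, and the median of all named genes moved from -0.04 to -0.67. The cause was not tested. No paired analysis was possible because each tissue has 1 array, and leaving out a replicate was likewise not possible. The number of arrays limits the precision, and the weakest signal well above background, -4.52 in tooth and -3.73 in skin, limits what can be measured.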

Other observations

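Other probes carry names that RefSeq or the array's own text ties to keratin-associated proteins without a Krtap name on the array, and they were counted as no member. Beside Gm11570, A030014E15Rik, on chromosome 1, read -6.82 in tooth and 1.04 in skin, at least 47.0-fold higher in skin. Both probes of AY026312 (Krtap19-9b in RefSeq) were dim on both arrays, as was 1110025L11Rik.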
